A study of Mus musculus with 33 samples.

Results

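The genes described here encode the proteins of the cytosolic ribosome. They were taken from the count table by symbol: every row named Rpl or Rps followed by a digit, together with Rplp0, Rplp1, Rplp2 and Rpsa. Kinase rows of the Rps6k family (10 rows) and rows marked as pseudogenes (5 rows) were left out. The rule gave 84 members of 14862 rows, 50 named for the large and 34 for the small subunit. It also took in 3 rows that are not ordinary subunits: Rps19bp1, a protein that binds Rps19, Rpl7l1, a distant relative of Rpl7, and Rps4y2, which the mouse annotation matches to Rps4l on chromosome 6, annotated without a coding sequence. The cells came from the ventricles of mice that express mAG-hGem, part of the FUCCI reporter, in which geminin tagged with Azami green builds up from S phase to M phase, and all 4 groups carry this transgene. Sorting split them into cells with the green signal (positive) and without it (negative), from embryos at E14.5 (10 positive and 11 negative cells) and from pups at P5 (6 positive and 6 negative cells). The labels call every cell a cardiomyocyte, on the basis of a PCR for Tnnt2 and Pdgfrb. They name no animal, so each group counts as 1 sample: no difference below has a replicate check, and no p-value or standard error was made from cells. The library titles change with age as well, so age and library preparation cannot be told apart. Where 4 values follow each other, they stand for E14.5 positive, then E14.5 negative, then P5 positive, then P5 negative.

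A cytosolic ribosome joins a small subunit, which reads the mRNA, to a large subunit, which forms the peptide bond. Nearly every ribosomal protein is present once in each ribosome, apart from the stalk proteins Rplp1 and Rplp2, and in growing cells the genes are usually expressed together. Most of their mRNAs start with a run of pyrimidines, the terminal oligopyrimidine (TOP) tract, through which mTOR signalling controls their translation. In mammals the genes have left many near-identical processed pseudogenes across the genome, so reads of a ribosomal protein gene are often hard to place. Striated muscle is known for Rpl3l, a relative of Rpl3 that replaces it in the ribosomes of mature heart and skeletal muscle.

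RefSeq promoter entries (build GRCm38.p6) were found for 63 members, in 75 windows, since some genes have several starts. A pyrimidine tract was searched on the sense strand only, by a looser rule than the TOP tract, which begins at the first base of the mRNA. It was a C followed by at least 4 bases that are each C or T, reaching to within 10 bases of the annotated start on either side. It was present in 43 of the 75 windows (57.3%) and in 11759 of 32851 windows of all genes (35.8%). A tract beginning exactly at the annotated first base was present in 13 member windows (17.3%) and in 823 of all windows (2.51%). The windows below run from 30 bases before to 20 bases after the start, with the first tract that meets the rule in capitals. A later run that meets it too, as in Rpl39, is left in small letters. The windows are shown for members that were high at P5 (Rps2, Rps9, Rplp0) and for members that were low at P5 (Rpl4, Rpl39, Rpl36a). In none of them does a tract begin at the annotated first base.
Rps2, chr17:24720033-24720082, plus strand: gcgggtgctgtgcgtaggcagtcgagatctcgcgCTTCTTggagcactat
Rps9, chr7:3704011-3704060, plus strand: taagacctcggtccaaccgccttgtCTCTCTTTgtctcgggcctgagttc
Rplp0, chr5:115559437-115559486, plus strand: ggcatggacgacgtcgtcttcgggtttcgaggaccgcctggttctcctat
Rpl4, chr9:64173357-64173406, plus strand: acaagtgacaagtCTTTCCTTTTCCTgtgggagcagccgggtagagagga
Rpl39, chrX:37085203-37085252, minus strand: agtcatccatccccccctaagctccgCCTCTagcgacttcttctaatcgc
Rpl36a, chrX:134585624-134585673, plus strand: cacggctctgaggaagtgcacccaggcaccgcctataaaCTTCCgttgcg
The tract did not separate the members by direction. It was found in 16 of 23 members that were at least 2-fold higher in P5 positive than in E14.5 positive cells, in 4 of 5 that were at least 2-fold lower and in 17 of 33 in between.

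How far a member's reads can be told from those of other genes was measured on its coding sequence (GENCODE M21, build GRCm38). In the median of 83 members with a coding sequence, 91.3% of all 50-base windows were also present in transcripts of another gene, mostly copies. For 30 members every window was shared, and 5 shared under 10%, among them Rpl3l, Rpl8, Rps19bp1 and Rps3. Some members also have a relative with a gene of its own. The first 60 coding bases of 3 such pairs follow, with the bases that differ within a pair in capitals, since the levels of both genes of each pair are given below.
Rpl3: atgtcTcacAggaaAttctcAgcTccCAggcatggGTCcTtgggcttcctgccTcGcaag
Rpl3l: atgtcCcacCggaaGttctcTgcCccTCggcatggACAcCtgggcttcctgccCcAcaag
Rps27: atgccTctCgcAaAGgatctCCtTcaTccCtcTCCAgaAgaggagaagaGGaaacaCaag
Rps27l: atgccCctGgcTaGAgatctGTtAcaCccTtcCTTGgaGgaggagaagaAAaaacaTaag
Rpl36a: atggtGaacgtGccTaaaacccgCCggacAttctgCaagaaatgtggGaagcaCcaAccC
Rpl36al: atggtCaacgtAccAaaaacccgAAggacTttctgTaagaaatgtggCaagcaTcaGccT
Over the whole coding sequence the pairs were 73.2%, 76.2% and 87.7% identical, in that order. All 50-base windows of Rpl36a and of Rpl36al were present in other transcripts too, and how such reads were assigned is not given in the sources used here, so their separate levels are uncertain.

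Totals per cell ran from 2.54 to 38.5 M counts, with a median of 12.8 M. Levels are given as CPM, a gene's counts scaled to a total of 1 M counts. No cell repeated another: the closest were G1 with G2, at a Pearson r of 0.867 on log2(CPM + 1) over all rows. Summed over 11 cardiomyocyte markers, the cells held 15426 to 45422 CPM in E14.5 positive, 17343 to 47292 CPM in E14.5 negative, 112 to 118050 CPM in P5 positive and 0.829 to 3293 CPM in P5 negative cells. Cardiomyocyte markers led all E14.5 positive cells, all E14.5 negative cells but N10, and 5 of 6 P5 positive cells. They led none of the 6 P5 negative cells: Tnnt2 reached at most 128 CPM there, while the 7 endothelial markers summed to 587 to 38332 CPM, with none of the 7 at 0 and Myh7 at 0 among the cardiomyocyte markers. The lowest endothelial sum was in L2N12, which held 19403 CPM of fibroblast and mural markers. Red blood cell markers summed to 2850.5 CPM in L1N3 and 2939 CPM in L2N10, beside 26757 and 12885 CPM of endothelial markers. In E14.5 cells the endothelial sum was at most 26.1 CPM, with Cdh5, Emcn and Fabp4 at 0 in both sorts. The P5 positive cell L2P12 held 112 CPM of cardiomyocyte and 16958 CPM of endothelial markers, and the E14.5 negative cell N10 held 46245 CPM of fibroblast and mural markers (8 of 9 listed genes were in the table). Each comparison that rests on these cells carries that difference in cell type, whose part in the result was not tested.

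Ribosomal protein counts made up 7.21% of all counts in E14.5 positive, 7.12% in E14.5 negative, 8.78% in P5 positive and 11.2% in P5 negative cells, in counts summed over the cells of a group. Single cells ranged from 5.47 to 8.69% (median 7.29%) in E14.5 positive and from 3.94 to 8.39% (median 7.499%) in E14.5 negative cells. They ranged from 5.30 to 11.7% (median 7.48%) in P5 positive and from 4.004 to 13.6% (median 10.8%) in P5 negative cells. The 4 ranges overlapped. The highest P5 positive cell was L2P12, and without it the log2 ratio of the sum, P5 positive over E14.5 positive, was 0.12 in place of 0.28. Intervals of these sums cover counting error only and are narrow, 0.282 to 0.285 for that ratio at 95% (exact Clopper-Pearson), and say nothing of the spread over cells or animals.

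The make-up of this total differed between the ages more than the total did. Large subunit rows outnumbered small subunit rows in counts by 2.69 to 1 in E14.5 positive and 2.66 to 1 in E14.5 negative cells, and by 1.22 and 1.30 to 1 in P5 positive and P5 negative cells. The ratio ran from 2.02 to 4.49 in single E14.5 positive cells (median 3.11) and from 1.13 to 1.79 in P5 positive cells (median 1.29). It ran from 2.07 to 4.43 in E14.5 negative cells (median 2.68) and from 1.22 to 1.49 in P5 negative cells (median 1.26). No E14.5 cell overlapped with any P5 cell. At E14.5 3 large subunit genes carried much of the excess: Rpl4, which lines the peptide exit tunnel, Rpl23, which faces the small subunit, and Rpl7, which binds ribosomal RNA. They held 29.7% of the ribosomal protein counts in E14.5 positive and 26.7% in E14.5 negative cells, against 9.45% and 13.5% at P5. Without these 3 genes the ratios were 1.59 and 1.68 at E14.5 and 1.01 and 0.989 at P5, so a difference between the ages remained.

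**Figure D1:**
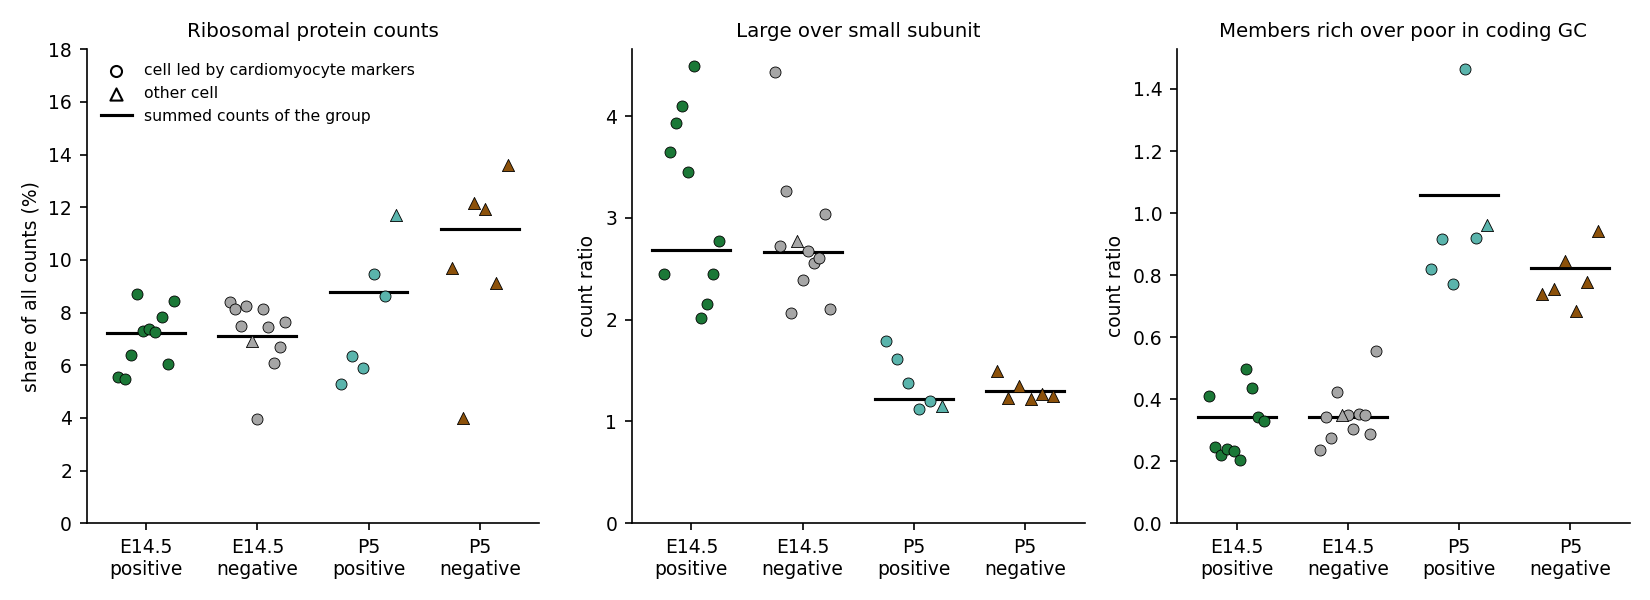
Share of all counts in ribosomal protein rows (left, %), count ratio of large to small subunit rows (middle) and count ratio of members above to members below the median coding GC (right), for each cell of the 4 groups. Circles are cells led by cardiomyocyte markers, triangles other cells, and lines the summed counts of a group: the shares overlap, while all E14.5 cells lie at 2.02 or above and all P5 cells at 1.79 or below in the middle panel.

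In cells sorted as positive, the typical ribosomal protein gene was higher at P5 than at E14.5, against a background of all genes that was slightly lower. Members were compared where the mean of both groups' CPM was at least 10, which 81 of 84 passed. Their median log2 ratio, P5 positive over E14.5 positive, was 0.80, against -0.09 over the 6895 genes past the same filter. At least 2-fold higher were 33 members, where 30.2% of all genes were, and at least 2-fold lower were 6, where 31.0% of all genes were. As shares of the members tested these are 40.7% and 7.41%. Rpl3l, among the higher, and Rpl34, among the lower, passed the filter only through the group in which they were high. Of all genes called, 1028 of the 2081 higher and 862 of the 2140 lower did so. The median was 0.81 for the 33 small and 0.49 for the 48 large subunit rows. Limited to cells led by cardiomyocyte markers, which leaves out L2P12, the median member was 0.51 against -0.43 for all genes. There 31 members were at least 2-fold higher and 10 lower. The shares of all genes are not given for these cells, and the 30.2% and 31.0% above are from all cells.

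Rpl10 (chromosome X, 74270812 to 74273135, plus strand, GRCm38), among the last proteins to join the large subunit, had the highest ratio of the members above 50 CPM. It measured 22.9 CPM in the lowest, 67.3 CPM in the median and 178 CPM in the highest E14.5 positive cell. At P5 the same 3 values for positive cells were 98.9, 383 and 1969 CPM, giving a log2 ratio of summed counts of 3.39 (3.36 to 3.41). The ranges overlapped, and the cell L2P8 held 62.5% of the P5 positive counts; without it the log2 ratio was 2.46. All 50-base windows of the Rpl10 coding sequence occur in transcripts of 15 other genes. Rps2 (chromosome 17, 24718116 to 24721929, plus strand), which sits with Rps3 and Rps9 near the entry of the mRNA channel, measured 91.8, 433 and 1701 CPM at E14.5 and 255, 3235 and 12697 CPM at P5 (lowest, median and highest cell), a log2 ratio of 2.91. L2P8 held 59.7% of the P5 positive counts of Rps2, and without it the ratio was 2.10. Rpl29, a small protein on the surface of the large subunit, measured 8.30, 30.3 and 73.0 CPM at E14.5 and 15.3, 115 and 337 CPM at P5, a log2 ratio of 2.48. In all 3 genes the lowest P5 positive cells fell within the E14.5 range.

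Proteins of the stalk, the flexible arm of the large subunit that recruits elongation factors, separated the ages in every positive cell. Rplp0, the base of the stalk, measured 245, 448 and 951 CPM in the lowest, median and highest E14.5 positive cell and 1213, 2438 and 3351 CPM at P5, a log2 ratio of 2.31. Rplp1 ran from 343 to 855 CPM at E14.5 and from 1258 to 3494 CPM at P5, and Rplp2 from 204 to 1161 CPM (highest cell G28) and from 1231 to 2774 CPM. Rps9, a small subunit protein bound early in assembly, ran from 447 to 935 CPM and from 1211 to 4492 CPM, a log2 ratio of 2.33. In all, 10 of 81 members had every P5 positive cell above every E14.5 positive cell: Rpl9, Rpl31, Rpl36, Rpl41, Rplp0, Rplp1, Rplp2, Rps9, Rps10 and Rps29. Of all 6895 genes tested 30 did so (0.435%). Without L2P12 the count was 10 members and 96 genes (1.39%).

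The 6 members at least 2-fold lower in P5 positive cells were of the large subunit. Without L2P12 10 members were at least 2-fold lower, the same 6 with Rpl7, Rpl21 and Rpl38 of the large and Rps13 of the small subunit. Rps13 then had a log2 ratio of -1.08 (-0.93 with L2P12). All genes shifted down as well, with a median of -0.43 without L2P12 and -0.09 with it. The share of all genes past 2-fold is not given without L2P12. Rpl17 (chromosome 18, 74998558 to 75003381, plus strand), which lines the exit tunnel with Rpl4, measured 1367, 1879 and 3979 CPM in the lowest, median and highest E14.5 positive cell and 178, 521 and 912 CPM at P5, a log2 ratio of -2.03. No P5 positive cell reached the lowest E14.5 cell. Rpl4 (chromosome 9, 64173375 to 64178666, plus strand) measured 2786, 11444 and 29362 CPM at E14.5 and 583, 2603 and 4148 CPM at P5, a log2 ratio of -1.72, with overlap between the ages. In E14.5 positive cells it was the most abundant member in CPM, with 13.8% of the ribosomal protein counts, and its highest value there was in the cell G10. Rpl36a (chromosome X, 134585654 to 134588062, plus strand), near the exit site for tRNA, measured 1708, 2686 and 4432 CPM at E14.5 and 186, 1102 and 1252 CPM at P5, a log2 ratio of -1.68 without overlap. Rpl23 (log2 ratio -1.45), Rpl39 (-1.17, and -0.91 without L2P8) and Rpl34 (-1.71) completed the 6. Rpl17, Rpl23 and Rpl36a were the 3 members with every P5 positive cell below every E14.5 positive cell, where 84 of 6895 genes (1.22%) were.

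The cells sorted as negative gave a like order of members across age. The comparison of P5 negative with E14.5 negative cells shares no cell with the one above, but its P5 cells were led by endothelial and other non-muscle markers. The median of 80 members was 1.04, against 0.17 over 7392 genes. At least 2-fold higher were 41 members (36.1% of all genes) and at least 2-fold lower were 4 (31.9% of all genes). Rpl30, among the higher, passed the filter only through the P5 group. Of all genes called, 1360 of the 2667 higher and 1182 of the 2359 lower passed only through the group in which they were high. Across the 79 members tested in both, the 2 log2 ratios had a Pearson r of 0.868 and a Spearman rho of 0.903 over genes, which are not independent replicates and share the libraries. Of these members 30 were at least 2-fold higher in both sorts, out of 31 in the positive and 40 in the negative sort, and 1, Rpl17, was lower in both. Of 5944 genes tested in both sorts 15.3% were at least 2-fold higher in both and 17.0% lower in both. Of members above 50 CPM, Rpl10 (log2 ratio 3.17) and Rps3 (3.01) were highest, and Rps4y2 (-2.25), Rps27l (-1.40) and Rpl17 (-1.37) were lowest. None of the 80 members had every P5 negative cell above every E14.5 negative cell, where 1.11% of all genes did. Rps3, for example, measured 0.194 CPM in L2N4, 64.7 CPM in L1N3 and 2884 to 4064 CPM in the other 4 P5 negative cells. For some members L2N4 alone, with 2994 detected genes, made the overlap. Rplp0 measured 507 CPM there and 2682 to 4245 CPM in the other P5 negative cells, against at most 1090 CPM in E14.5 negative cells. Rplp1, Rplp2, Rps9 and Rpl9 did likewise. A count of all genes without L2N4 is not given. Rpl17 was the 1 member with every P5 negative cell below every E14.5 negative cell, where 2.39% of all genes were.

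**Figure D2:**
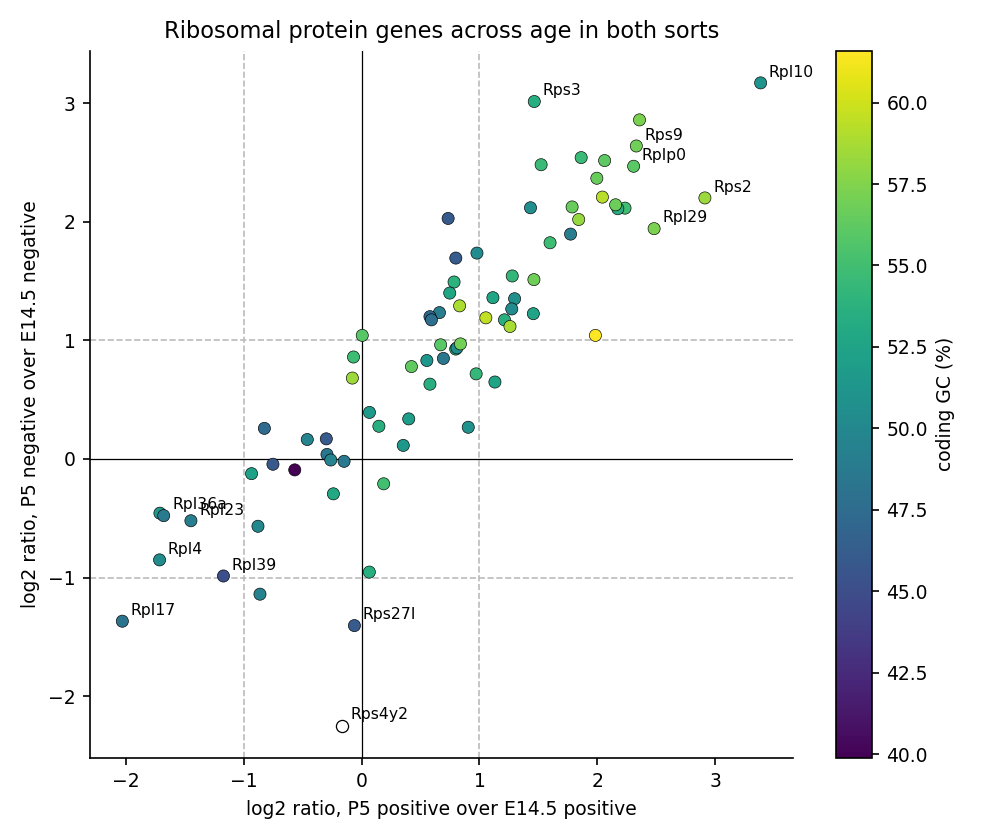
Log2 ratio of each of 79 members across age in positive cells (x axis) and in negative cells (y axis), coloured by coding GC (%), with an open circle for Rps4y2, which has no coding sequence; dashed lines mark 2-fold. Most members lie in the upper right, Rpl17 is the 1 member beyond 2-fold in the lower left, and Rps27l and Rps4y2 fall below the others.

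The base composition of a member went with its ratio across age. The members' coding GC ran from 39.9 to 61.6%, with a median of 52.7%. Of 41 members above that median, 25 were at least 2-fold higher in P5 positive than in E14.5 positive cells and 0 were lower, with a median log2 ratio of 1.28. Of 38 below it, 7 were higher and 6 lower, with a median of 0.21. Of all genes, whatever their coding GC, 30.2% were higher and 31.0% lower. Other genes within the members' GC range moved the same way: the median was 0.77 for 2484 GC-rich and -0.49 for 3797 GC-poor genes. The Pearson r between coding GC and log2 ratio was 0.566 over 80 members and 0.225 over 6693 other genes. It was 0.394 and 0.154 between the negative sorts, and 0.056 and -0.081 between the E14.5 sorts. Between the P5 sorts it was 0.265 over members and -0.009 over other genes. With the trend of all genes on coding GC removed, the members' median was 0.50 in the positive and 0.74 in the negative cells. The medians over all genes were then -0.07 and 0.16. At least 2-fold higher were 25 and 34 members, of which 19 and 33 were among those higher before. The share of all genes past 2-fold after this step is not given. The part of base composition in the members' ratios was not tested beyond this.

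Within the GC-poor members the subunit medians differed in sign between the positive sorts. Small subunit rows had a median log2 ratio, P5 positive over E14.5 positive, of 0.66 (15 rows, 11 above 0), and large subunit rows of -0.29 (23 rows, 9 above 0). All 6 members that were at least 2-fold lower were in this large subunit set. Without L2P12 the medians were 0.27 and -0.32, with 1 small and 9 large subunit rows at least 2-fold lower. The median of all genes was then -0.43, against -0.09 with L2P12, and the share of all genes past 2-fold is not given for these cells. Among GC-rich members the medians were 1.28 for 17 small and 1.36 for 24 large subunit rows. Between the negative sorts the small subunit median was above the large one in both sets: 1.83 against 1.12 among GC-rich and 0.94 against 0.08 among GC-poor rows. The subunits had nearly the same median coding GC, 52.7% for the small and 52.6% for the large subunit.

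**Figure D3:**
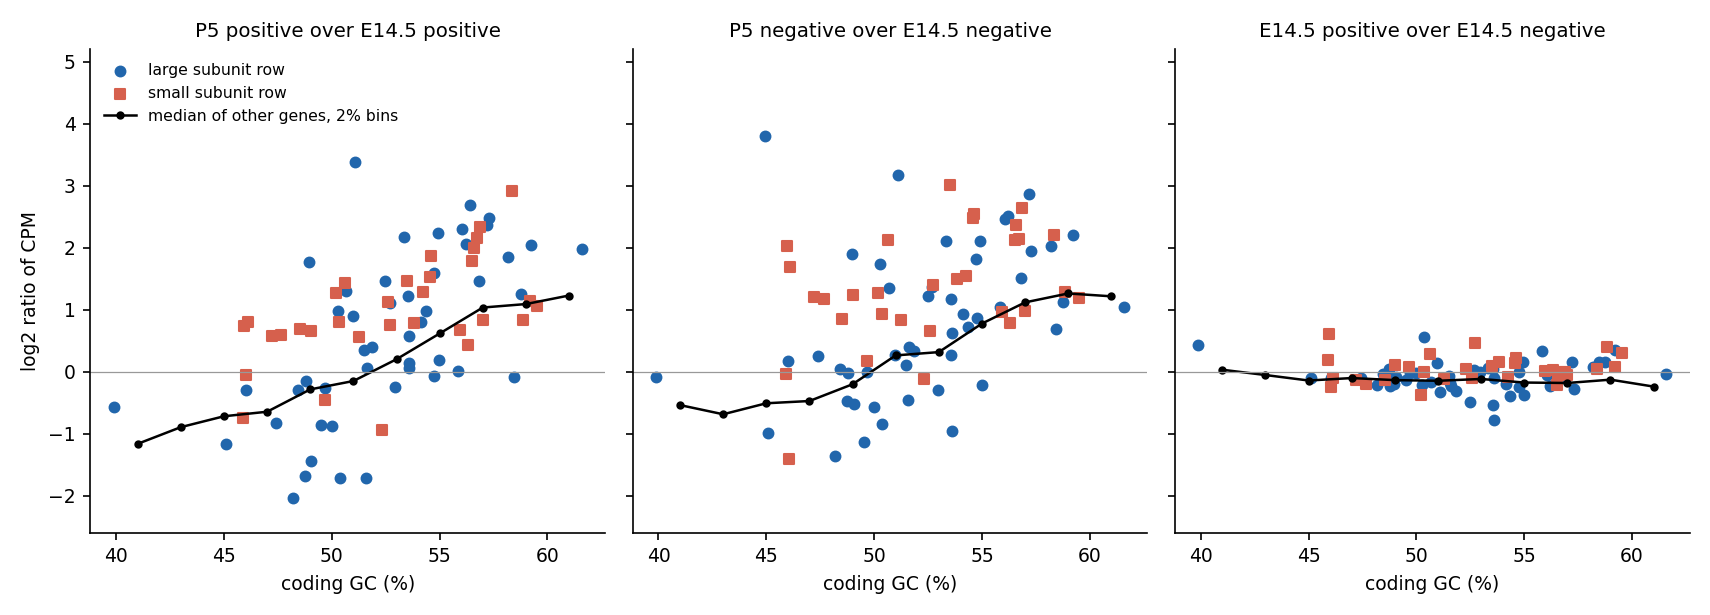
Log2 ratio of CPM against coding GC (%) for members of the large subunit (circles) and of the small subunit (squares), with the median of all other genes in 2% bins of coding GC (black line), in 3 comparisons. Members rise with GC across age along with other genes, most small subunit rows lie above the line at low GC, and no member passes 2-fold between the E14.5 sorts.

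Cell by cell, the ratio of counts from GC-rich to GC-poor members was 0.204 to 0.496 in E14.5 positive and 0.234 to 0.554 in E14.5 negative cells, and 0.773 to 1.47 in P5 positive and 0.683 to 0.941 in P5 negative cells. The ages did not overlap. The same ratio over other genes was 0.339 to 0.462 over the E14.5 cells except N3 at 0.310, and 0.426 to 1.14 over the P5 cells. The 2 ratios had a Pearson r of 0.827 over all 33 cells, in which members and other genes share library and depth. Within 1 age and sort, r was 0.945 over 10 E14.5 positive cells and 0.518 over 11 E14.5 negative cells. In the map of members by cell these cells fall into those with low GC-rich members (G2, G5, G6, G8 and G10, at 0.204 to 0.246) and the other 5 (0.330 to 0.496). The low cells all have title numbers from 1 to 10, and the others are G1 and the 4 cells numbered 21 to 30.

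**Figure D4:**
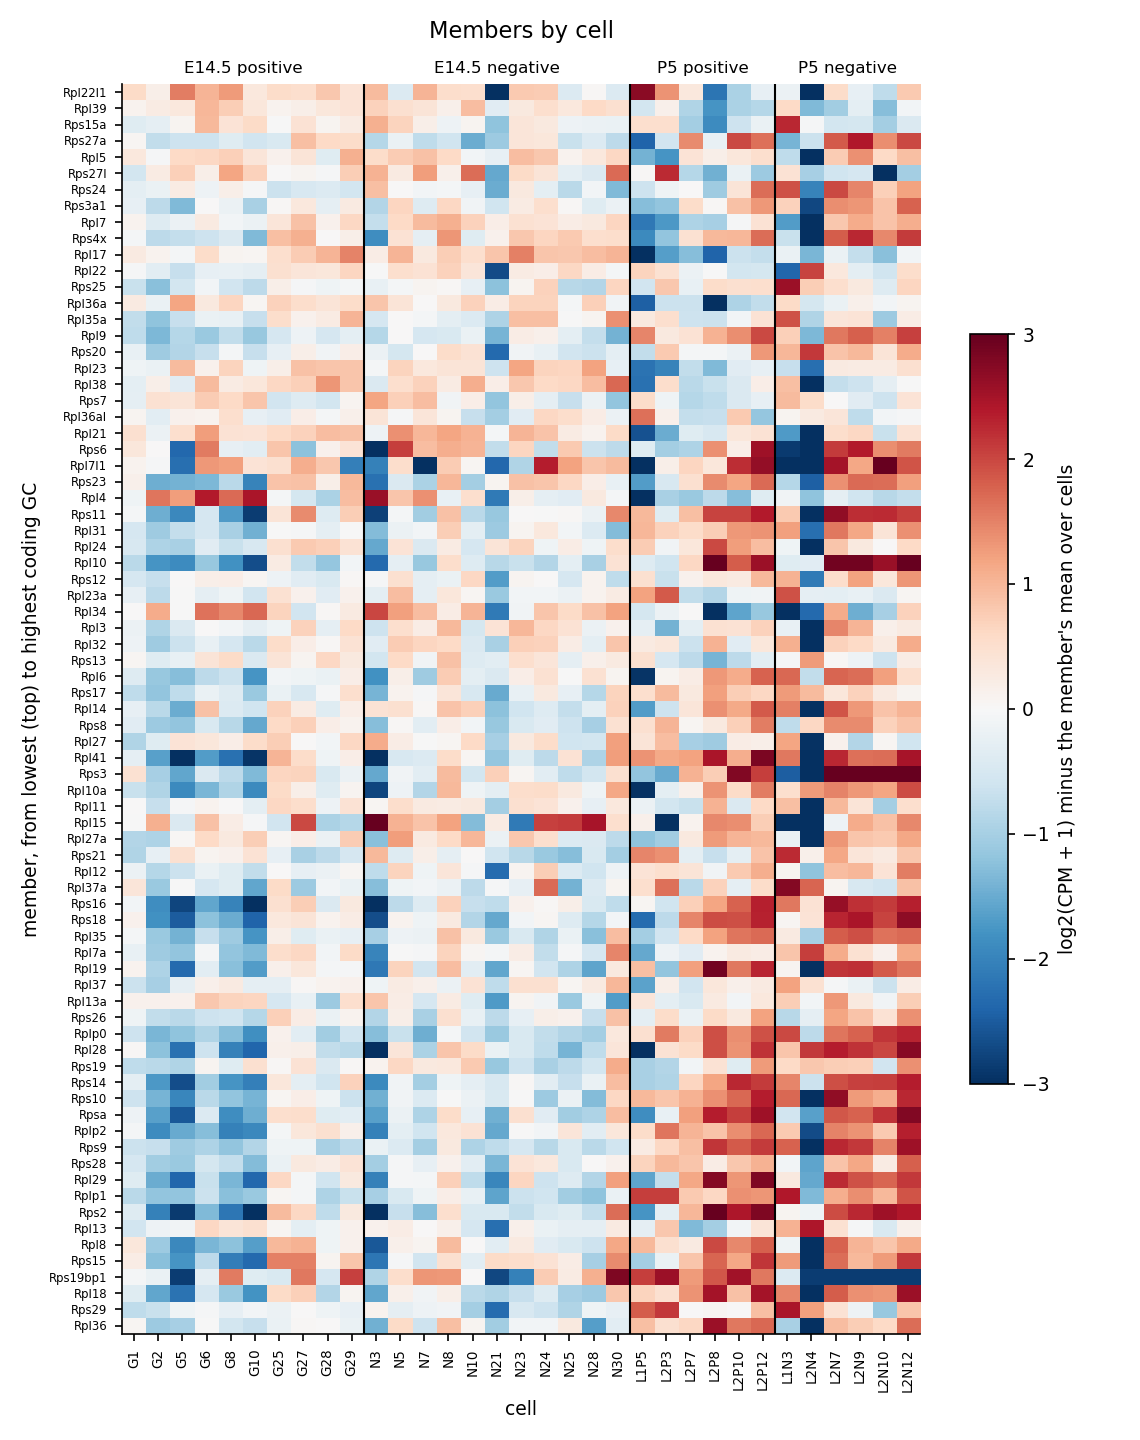
Most of the members with at least 10 CPM over all cells, one row each from low to high coding GC, across the 33 cells (columns, grouped by sort and age); colour is log2(CPM + 1) minus the member's mean over cells. The P5 columns are red towards the GC-rich end, G2, G5, G6, G8, G10 and N3 are blue there, and Rps19bp1 is dark blue in 5 of 6 P5 negative cells.

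Between the sorts at E14.5, where nearly all cells were led by cardiomyocyte markers, the members' summed level differed little. The log2 ratio of the sum, E14.5 positive over E14.5 negative, was 0.02, and under other scalings and cell sets it ran from -0.17 to 0.11, so its sign is not settled. The median of 80 members was -0.04, against -0.12 over 6610 genes. Not 1 member was 2-fold higher or lower, where 14.3% of all genes were higher and 19.4% lower. Of these genes, 426 of the 944 higher and 543 of the 1285 lower were under 10 CPM in the other group. The shares of all genes thus hold many genes at low levels, where most members are not. Rpl15, a core protein of the large subunit, was lowest at -0.79 (-1.64 without G27): it ran from 134 to 1038 CPM (median 258) in positive and from 59.4 to 2396 CPM (median 537) in negative cells, with the highest value in N3. Rpl10a (-0.54) and Rpl6 (-0.48) followed. Rps27a, made as a fusion with ubiquitin, was highest at 0.61, followed by Rpl4 (0.56) and Rps4y2 (0.55). In these members the cells of both sorts overlapped. The cells' titles carry numbers from 1 to 10 or from 21 to 30, whose meaning is not given in the sources used here. Among the 6 positive and 5 negative cells numbered 1 to 10, the median member was -0.63, against -0.10 over all genes. There 14 members were at least 2-fold lower. Among the 4 and 6 cells numbered 21 to 30, the median member was 0.19, against -0.14 over all genes. There 0 members passed 2-fold in either direction. Shares of all genes past 2-fold are not given for these smaller sets, and the 14.3% and 19.4% above are from all cells.

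Between the sorts at P5, the age at which the sorts also differed in cell type, ribosomal protein counts were lower in the positive cells. The log2 ratio of the sum, P5 positive over P5 negative, was -0.35, and it stayed negative under the other scalings and cell sets tried (-0.51 to -0.15). The median of 82 members was -0.31, close to the -0.37 over 7334 genes. At least 2-fold higher were 4 members (28.3% of all genes) and at least 2-fold lower were 5 (37.6% of all genes). Rpl3l and Rps19bp1 among the higher, and Rpl34 among the lower, passed the filter only through the group in which they were high. Of all genes called, 1139 of the 2078 higher and 1303 of the 2760 lower did so. The count of lower members moved with single cells: it was 14 without L2P12, 8 without L2P10, 8 without L2N4 and 3 without L2P8. All genes moved as well: without L2P12 their median was -0.68, and the median member was -0.52. Shares of all genes past 2-fold are not given for these cell sets, so the counts have no background beside them. Rps3 (-1.46), Rpl7 (-1.18) and Rpl36a (-1.16) were lowest of the members above 50 CPM. Rpl36a measured 1351, 1955 and 2916 CPM in the lowest, median and highest P5 negative cell and at most 1252 CPM in P5 positive cells, so the sorts did not overlap. Rps4y2 (2.64), Rps27l (1.09) and Rpl36 (0.90) were highest of the members above 50 CPM. L2P3 held 63.9% of the P5 positive counts of Rps27l, and without it that ratio was -0.12. Rpl36a was at -0.76 without L2P8.

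The relatives of ribosomal protein genes followed patterns of their own. Rpl3l (chromosome 17, 24727820 to 24736143, plus strand, GRCm38) was found in few cells. In E14.5 positive cells it measured 32.4 CPM in G28, 8.04 CPM or less in the others and 0 in 7 of 10. In E14.5 negative cells it was at 0 in all 11. In P5 positive cells it measured 109 CPM in L2P8, 29.4 CPM in L2P3 and 0 in 2 of 6, and in P5 negative cells 1 count was found, in L2N4. In summed counts P5 positive exceeded E14.5 positive cells by a log2 ratio of 2.68 (2.58 to 2.79), but this rested on single cells: it was 0.38 without L2P8 and 5.25 without G28. Over P5 negative cells, with their 1 count, the log2 ratio was 11.58 (9.10 to 16.88). Rpl3, its parent, was found in every cell, with medians of 1084, 1603, 1299 and 1379 CPM in the 4 groups. Per kilobase of coding sequence, with all cells summed, Rpl3 reached 1282 CPM and Rpl3l 6.67 CPM.

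Rps4y2, which shares its name with a Y-linked human gene but is matched here to mouse Rps4l on chromosome 6 (148354656 to 148355598), measured 28.8, 163 and 282 CPM in the lowest, median and highest E14.5 positive cell and 19.1, 129 and 254 CPM in E14.5 negative cells. It measured 51.6, 130 and 219 CPM in P5 positive cells and 0, 14.4 and 37.3 CPM in P5 negative cells. Every P5 positive cell was above every P5 negative cell, L2P12 included, which held the lowest positive value. Its parent Rps4x, encoded on the X chromosome, went the other way between the P5 sorts, with a median of 2905 CPM in the positive sort, a median of 5452 CPM in the negative sort and a log2 ratio of -0.78. Rps27l, a target of p53 in other tissues, measured 336 to 1122 CPM in E14.5 positive, 170 to 1619 CPM in E14.5 negative, 181 to 2348 CPM in P5 positive and 30.2 to 667 CPM in P5 negative cells. Its highest P5 positive value came from L2P3, and the next was 507 CPM. Rps27 itself stayed at or under 4.37 CPM in every cell. All 50-base windows of its coding sequence occur in transcripts of 9 other genes. Rps19bp1 was at 12.5, 11.95, 27.6 and 0.374 CPM in summed counts of the 4 groups, and was at 0 in 5 of 6 P5 negative cells.

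Rpl22l1, which can stand in for Rpl22, was at a median of 532, 509, 371 and 310 CPM in the 4 groups, and Rpl22 at 479, 621, 492 and 539 CPM. Rpl36al, made from another gene with a nearly identical protein to Rpl36a, was at medians of 403, 399, 326 and 386 CPM. It did not share the low P5 positive level of Rpl36a: its log2 ratio, P5 positive over E14.5 positive, was -0.26. Rpl7l1 was at medians of 43.7, 46.5, 45.5 and 96.8 CPM, and Rpl7 at medians of 4455, 5665, 2116 and 7317 CPM. Per kilobase of coding sequence, with all cells summed, this came to 110 CPM for Rpl7l1 and 6571 CPM for Rpl7.

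**Figure D5:**
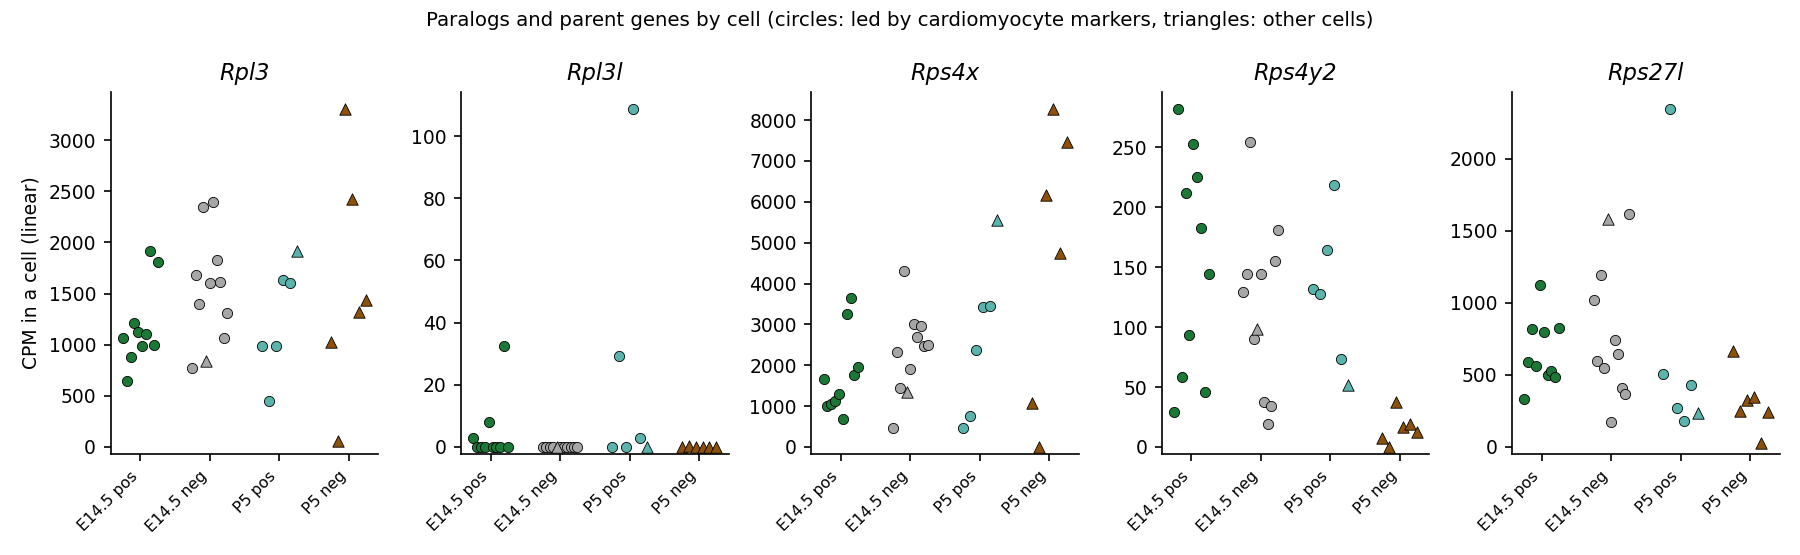
CPM of Rpl3, Rpl3l, Rps4x, Rps4y2 and Rps27l in each cell (linear axes, 1 panel a gene), by group; circles are cells led by cardiomyocyte markers and triangles other cells. Rpl3l rises above 8.04 CPM in G28, L2P3 and L2P8 only, and Rps4y2 stays at or under 37.3 CPM in P5 negative cells.

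Per kilobase of coding sequence, over all cells, Rpl39 (13762 CPM per kb), Rpl23 (12737), Rpl36a (7198) and Rpl7 (6571) were highest. All counts of a row were divided by its coding length alone, which raises members with a short coding part. Rpl39 has 153 coding bases in a transcript of 612 bases, so its rank is tied to this divisor. At the other end Rps27, Rpl26 and Rpl30 had summed levels of 0.152 to 0.746, 0.0818 to 1.02 and 0.696 to 20.6 CPM over the 4 groups. They encode ordinary subunits, and 100%, 87.3% and 83.1% of their coding windows are shared with other genes. With all depths as deposited, the median cell had a read in 82 of 84 members in both E14.5 sorts, in 83.5 in P5 positive and in 81 in P5 negative cells. Thinned to 8671357 counts a cell, with 6 shallower cells left out, the medians were 82, 81, 82 and 81.

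Over the 25 cells led by cardiomyocyte markers, the coefficient of variation of CPM had a median of 0.548 over 74 members with a mean of at least 100 CPM. Rps12, a small subunit protein on the head of the particle, was steadiest at 0.280, followed by Rpl22 (0.322) and Rpl39 (0.324). Rpl10 (1.99) and Rps2 (1.86) varied most, and the highest of these cells was L2P8 for both. These 25 cells span both ages, so the coefficient holds the difference between ages as well. Over the 20 of them from E14.5, with 72 members of at least 100 CPM, Rpl15 (0.958), Rps2 (0.914) and Rpl4 (0.856) varied most and Rpl39 (0.194) least. L2P8 also had the highest cardiomyocyte marker sum of all cells, 118050 CPM.

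Ribosomal proteins outside the symbol rule were also higher at P5 in summed counts. Fau, which yields the small subunit protein Rps30, was at 84.4, 96.9, 175 and 207 CPM in the 4 groups. Gnb2l1, the older symbol of Rack1, a scaffold on the small subunit, was at 632, 700, 1750 and 2538 CPM. In a list of 18 translation and TOP genes, which holds both, 17 were tested between the positive sorts, with a median log2 ratio of 0.30, 6 at least 2-fold higher and 4 lower (30.2% and 31.0% of all genes). Tpt1, which encodes a translationally controlled tumour protein and is a known TOP mRNA, was highest (459 and 2368 CPM, log2 ratio 2.37). Pabpc1, which binds poly(A) tails, went down from 1282 to 364 CPM, and Eef1b2, an exchange factor of elongation, from 5014 to 1781 CPM.

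Shares of 2-fold calls among genes that build or regulate ribosomes are read beside those of all genes in this comparison, 30.2% higher and 31.0% lower. Of 30 ribosome biogenesis genes 25 were tested between the positive sorts, with a median log2 ratio of 0.46, 6 at least 2-fold higher and 7 lower. Nucleolin (Ncl), a major protein of the nucleolus, was at 1111 CPM at E14.5 and 523 CPM at P5, and the assembly chaperone Npm1 at 2422 and 857 CPM. Nhp2, part of the particles that modify ribosomal RNA, was at 8.996 and 127 CPM. Of 15 regulators 12 were tested, with 4 higher and 5 lower and a median of -0.43. The higher ones include Rps6, which is itself a member. Rps6kb2 (0.531 CPM at E14.5) and Akt1s1 (2.45 CPM), among the higher, passed the filter only through P5. Myc (7.80 CPM at P5), among the lower, passed it only through E14.5. Mycn, a transcription factor of growing cells, was at 187 and 11.2 CPM, Mtor at 83.9 and 14.0 CPM, and Eif4ebp1, an mTOR target that restrains translation, at 39.5 and 160 CPM. Of 76 mitochondrial ribosomal protein genes, which serve the separate ribosome of mitochondria, 71 were tested, with a median of 0.51, 24 higher and 7 lower. Between the P5 sorts 44 of 70 were at least 2-fold higher in positive cells and 3 lower, with a median of 1.54, where the cytosolic members had -0.31 and all genes -0.37. Of all genes 28.3% were higher and 37.6% lower there.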

How the data were processed

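Single sorted mouse heart cells were profiled by RNA-seq after antisense RNA amplification, per the labels. The authors deposited raw read counts per gene for 33 cells in 1 table, and the submitters' processing notes name CASAVA 1.8.2, STAR 2.4.0j, HTSeq 0.6.1p1 and the mm10 build without giving their settings. Molecular identifiers are not given in the sources used here, so intervals cover counting error only. Totals were 2.54 to 38.5 M counts a cell.

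For each group, a gene's counts in all cells were added up and scaled by the group's total to CPM. Ratios have exact Clopper-Pearson intervals at 95%. For medians and counts of members 0.5 count was added to each side, and printed ratios of single genes have none added. With 1 sample a group no test was made, and at least 2-fold was the size threshold, among genes with a mean CPM of at least 10. Members of at least 50 CPM in the higher group are named as the 3 highest and 3 lowest in a comparison, besides relatives with their parents, the 4 highest per kb and the extremes of variation; others were chosen after their values were seen, and a few genes that the rule names are not reported here. A cell is led by cardiomyocyte markers where these sum to at least 10000 CPM and exceed each other cell type's list. Members and lists were chosen with earlier results of these data known. Of 14862 rows 172 matched no gene of GENCODE M21 or RefSeq. The ratio calculation was tested on simulated data. Alternatives used edgeR 4.0.16 TMM factors and DESeq2 1.42.0 size factors (scaling only), other cells, totals and filters. Software was Python 3.11.15 and R 4.3.3.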

Additional observations from a re-analysis of the deposited data

Results flagged for a closer look

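Dixon's limit at 95% was applied within groups of 6 and 10 cells to 21 sets of values, of which chance alone flags about 1 in 20, or 1.05 sets. It pointed out 6 values, in 4 cells. Rpl3l stood at 32.4 CPM in the E14.5 positive cell G28, where the next cell had 8.04 CPM, and at 109 CPM in the P5 positive cell L2P8, where the next had 29.4 CPM. In P5 negative cells the same gene stood at 0.194 CPM in L2N4, which is 1 count, against 0 in the others; with 5 cells at 0 any count passes the limit, so this value says nothing more. Rps27l stood at 2348 CPM in the P5 positive cell L2P3, where the next had 507 CPM. The count ratio of GC-rich to GC-poor members was 1.47 in L2P8, where the next P5 positive cell had 0.961, and the same ratio over other genes was also highest there, at 1.14. L2N4 lacked a read in 8 members, where the next P5 negative cell lacked 4, and it had 2994 detected genes, the fewest of all P5 negative cells.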

How the results depend on the processing

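Of 497 recomputed values 471 stayed within the spread between cells, or for counts within 1.5 times, 26 moved further and 0 changed the sign of a ratio beyond 2-fold. Scalings moved the median of all genes: in P5 positive over E14.5 positive by 0.17 with TMM and 0.45 with DESeq2 size factors, and by -0.34 in cells led by cardiomyocyte markers. With DESeq2 size factors that comparison gave 0.75 for the sum, 1.41 for the median member and 52 members 2-fold higher. Counts of members 2-fold lower became, with DESeq2 size factors, 1 between the E14.5 sorts, 14 between the P5 sorts and 2 between the negative sorts. With equal weight of cells they became 1 between the E14.5 sorts and 7 between the negative sorts. With TMM the P5 sorts gave 7 higher and 3 lower. In cells led by cardiomyocyte markers, or without L2P12 and N10 (chosen after seeing the data), 10 members were lower in P5 positive than in E14.5 positive cells, and without those cells 14 were lower between the P5 sorts. E14.5 cells with title numbers 1 to 10 gave a median of -0.63 and 14 lower. A filter of 1 CPM gave 1 higher and 1 lower between the E14.5 sorts, and 100 CPM gave 1 higher between the P5 sorts. Removing the coding GC trend, also chosen afterwards, left 1 lower between the negative sorts. Shares of all genes past 2-fold are not given for these settings, so the counts of members have no background beside them. Leaving out 1 cell at a time, the members 2-fold lower ran from 5 to 10 in P5 positive over E14.5 positive, from 0 to 1 between the E14.5 sorts and from 3 to 14 between the P5 sorts; the cause was not tested. Ratios of single members without 1 cell, and variation within E14.5, were added after seeing the data. No paired analysis was possible because the labels name no animal, the numbers in the titles are not stated to link cells, and no test was made between groups. Depth limits the low members only: Rpl3l, Rps27, Rpl26 and Rpl30 are near or under 1 CPM in many cells.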

Other observations

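Of the 5 pseudogene rows left out, 4 stayed at or under 4.75 CPM in the summed counts of all 4 groups. The other, Rps15a.ps6, was at 60.4, 54.3, 26.4 and 39.3 CPM in the 4 groups (E14.5 positive, then E14.5 negative, then both P5 sorts in the same order) and had reads in all 33 cells, while Rps15a was at 822, 721, 488 and 699 CPM. Mitochondrial ribosomal protein genes held 0.777, 0.722, 0.974 and 0.416% of all counts in the same groups. Between the negative sorts 33 of 70 of them were at least 2-fold lower at P5 and 12 higher, where 31.9% of all genes were lower and 36.1% higher.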
